A study of Mus musculus with 14 samples.

Results

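The genes described here make, spend or methylate nicotinamide adenine dinucleotide (NAD) and its precursor nicotinamide, or belong to the sirtuins and the poly(ADP-ribose) polymerases that consume it. They were 10 named symbols (Nampt, Nnmt, Nmnat1, Nmnat2, Nmnat3, Sirt1, Sirt2, Sirt3, Parp1 and Cd38) of 55291 gene symbols in the table, all 10 were found, and all 10 were among the 20562 genes with enough counts to be tested. The rule used the symbols and no measured value, but the symbols were chosen with earlier results of these data known.

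The study followed mouse embryonic fibroblasts through a 2-stage chemical treatment meant to turn them into retinal pigment epithelium (RPE), the pigmented layer that serves the photoreceptors. All libraries carry the label of the C57BL/6J strain and of E13.5 embryos as the tissue. The starting fibroblasts (MEF) had 3 libraries, and their treatment entry names the first medium, although they are the starting cells by their title. Cells at day 7 (D7, 3 libraries) and day 18 (D18, 3 libraries) were in a first medium that held bFGF together with CHIR-99021, LDN193189, A 83-01, Hh-Ag1.5, RG108, BMS-345541 and CKI-7. Cells at day 32 (D32, 3 libraries) had been moved to a second medium that held Y27632, 10 mM nicotinamide, retinoic acid and Activin A. D32 thus differs from D18 in time, in the compounds of the first medium and in all those of the second, and the part of nicotinamide cannot be told apart from the rest. Untreated primary RPE (P-RPE, 2 libraries) is the cell type aimed at. Per the labels, cells that looked well induced were scraped for RNA at each time, so the libraries stand for selected cells, and whether replicates came from separate cultures or animals is not said. The p-values therefore measure only the spread between these libraries, which may be technical.

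Nicotinamide is turned into nicotinamide mononucleotide by Nampt, the rate-limiting enzyme of the salvage pathway, and the Nmnat enzymes add the adenylate part to give NAD in the nucleus (Nmnat1), the Golgi and cytosol (Nmnat2) or mitochondria (Nmnat3). Sirtuins, Parp1 and Cd38 split NAD and release nicotinamide, and Nnmt methylates nicotinamide and so takes it out of the cycle. In the retina, loss of NMNAT1 function in people causes a congenital blindness, and nicotinamide is a common additive in protocols that make RPE from stem cells.

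The libraries held 32352405 to 41390196 counts, so that 1 count was worth 0.0227 to 0.0305 CPM (counts scaled to library size). Levels below are CPM after TMM scaling of the library sizes, and levels of different genes are compared only after division by exon length. A gene was said to rise or fall where edgeR's quasi-likelihood test gave a Benjamini-Hochberg adjusted p under 0.05 over all 20562 genes, written as adjusted p below. The sum of 13 RPE markers was 5.22 to 6.12 CPM in MEF, 22.04 to 29.6 CPM in D7, 64.4 to 68.6 CPM in D18, 4766 to 9064 CPM in D32 and 61160 to 68140 CPM in P-RPE. Rpe65, Lrat, Rgr, Ttr, Tyr and Otx2 were at 0 counts in MEF, and Ttr, Tyr and Otx2 were at 0 in D18. The sum of 8 astrocyte markers was 545 to 574 CPM in MEF, 1457 to 2005 CPM in D7, 26660 to 39620 CPM in D18, 2386 to 2455 CPM in D32 and 660.4 to 1130 CPM in P-RPE. P-RPE also held markers of other cells, with 1343 to 1458 CPM over 10 macrophage markers, 534 to 649 CPM over 7 endothelial markers and 880 to 2484 CPM over 6 rod markers. In D32 these sums were 161 to 278 CPM for macrophage markers, 87.5 to 114 CPM for endothelial markers and 6.16 to 49.3 CPM for rod markers. The 6 red cell markers summed to 975 to 1780 CPM in P-RPE and 102 to 204 CPM in D32. Their sum was 0.17 to 0.64 CPM in MEF, 0.19 to 0.33 CPM in D7 and 0.06 to 0.45 CPM in D18. Where the RNA of these other markers in D32 came from, and its part in the D32 levels below, was not tested.

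Promoters are shown for 4 genes, picked after the values were seen, because their windows hold at most 15 bases of exon in GENCODE vM21. The windows of Nmnat1, Nmnat2, Sirt2, Sirt3 and Cd38 lie partly or wholly over annotated exons and are not shown, so the genes that peaked at day 18 are not represented. Of the 4, Nampt and Sirt1 varied least over the groups, Nmnat3 was highest in P-RPE, and Parp1 was lower from day 18 on. Each is the 250 bases before the RefSeq start site (build GRCm38.p6), read 5′ to 3′ on the gene's strand. Capitals mark GGGCGG (the GC box bound by Sp factors), CACGTG (an E-box) and TTCNNNGAA (a STAT-type element), each searched on both strands. In Sirt1, 2 GGGCGG matches overlap by 2 bases.
Nampt: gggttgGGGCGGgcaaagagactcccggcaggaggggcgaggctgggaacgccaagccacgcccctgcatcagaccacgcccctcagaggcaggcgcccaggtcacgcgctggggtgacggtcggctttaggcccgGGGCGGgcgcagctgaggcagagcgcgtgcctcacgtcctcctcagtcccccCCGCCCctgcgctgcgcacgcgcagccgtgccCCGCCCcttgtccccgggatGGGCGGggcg
Sirt1: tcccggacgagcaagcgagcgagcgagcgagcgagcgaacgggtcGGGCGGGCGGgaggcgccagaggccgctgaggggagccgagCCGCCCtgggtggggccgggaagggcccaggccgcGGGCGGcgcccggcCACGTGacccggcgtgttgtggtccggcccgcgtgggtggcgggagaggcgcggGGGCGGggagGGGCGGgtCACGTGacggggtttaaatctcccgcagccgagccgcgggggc
Nmnat3: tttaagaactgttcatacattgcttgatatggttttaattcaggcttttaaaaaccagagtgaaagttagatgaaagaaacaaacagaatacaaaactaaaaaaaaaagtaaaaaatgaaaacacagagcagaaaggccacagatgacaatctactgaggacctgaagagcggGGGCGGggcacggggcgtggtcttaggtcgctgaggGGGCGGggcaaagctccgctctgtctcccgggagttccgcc
Parp1: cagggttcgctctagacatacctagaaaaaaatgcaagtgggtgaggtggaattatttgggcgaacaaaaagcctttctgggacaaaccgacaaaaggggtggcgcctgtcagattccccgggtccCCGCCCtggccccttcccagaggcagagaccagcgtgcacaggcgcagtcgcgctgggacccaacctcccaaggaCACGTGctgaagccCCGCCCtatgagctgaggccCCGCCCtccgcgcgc
The Nampt window lies at chr12:32820085-32820334 on the plus strand, the Sirt1 window at chr10:63339036-63339285 on the minus strand, the Nmnat3 window at chr9:98296320-98296569 on the plus strand and the Parp1 window at chr1:180568641-180568890 on the plus strand. By the GENCODE coordinates given below, the Nampt, Sirt1 and Nmnat3 windows lie inside the annotated gene, so GENCODE also places an earlier start for each. The Parp1 window lies before the annotated gene. Sirt1 had 39 CpG dinucleotides, 6 GGGCGG and 2 CACGTG matches. Nampt had 27 CpG dinucleotides and 5 GGGCGG matches. Nmnat3 had 9 CpG dinucleotides and 2 GGGCGG matches, and Parp1 had 16 CpG dinucleotides, 3 GGGCGG matches and 1 CACGTG match. Over 32817 such windows, 32.7% held GGGCGG, 6.02% held CACGTG and 7.01% held TTCNNNGAA, and the median CpG number was 6 with an upper quartile of 16. The Sirt1 window was richer in CpG than 98.4% of windows and the Nampt window richer than 91.4%. TTCNNNGAA was in none of the 11 windows found for 9 of the 10 genes, and no window was found for Nnmt. A motif match is a description of these letters and not a measured binding site.

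The 10 genes differed widely in how far their levels moved. The ratio of the highest to the lowest group mean was 1.31 for Nampt, 1.31 for Sirt1, 1.61 for Nmnat1, 1.95 for Parp1, 2.06 for Nmnat3, 2.88 for Sirt2, 6.8 for Sirt3, 7.47 for Cd38, 10.5 for Nnmt and 19.9 for Nmnat2. D18 held the highest mean of 5 genes (Nmnat2, Nnmt, Sirt2, Sirt3 and Cd38), although the D18 mean of Nnmt was not told apart from that of D32. The plot of levels by library shows these shapes.

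**Figure D1:**
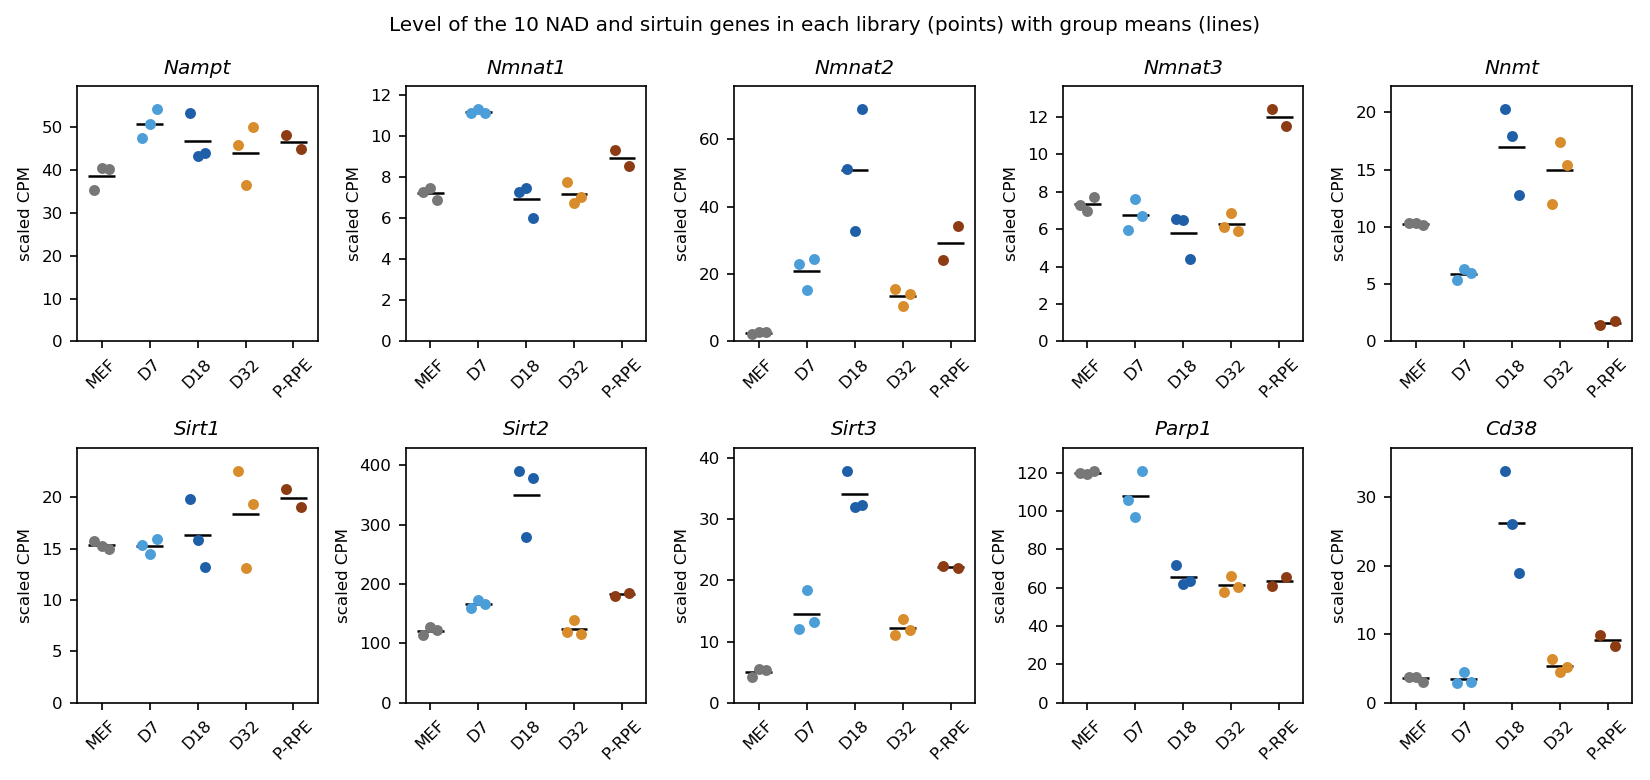
Level of each gene in scaled CPM (vertical axis, from 0) in every library of MEF, D7, D18, D32 and P-RPE (horizontal axis); points are libraries and lines are group means. Nmnat2, Sirt2, Sirt3 and Cd38 peak at D18, where Nmnat2 overlaps P-RPE. Nnmt is lowest in P-RPE with 1.46 and 1.77 CPM, and Nampt and Sirt1 stay within a narrow band.

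In D7 relative to MEF, 5 of the 10 genes rose (Nmnat2, Sirt3, Nmnat1, Sirt2 and Nampt), 1 fell (Nnmt) and 4 did not pass, with a median log2 change of 0.19. Over all tested genes 28.5% were higher and 26.5% lower in D7, with a median log2 change of 0.04. In D18 relative to D7, 5 rose (Cd38, Nnmt, Nmnat2, Sirt3 and Sirt2), 2 fell (Nmnat1 and Parp1) and 3 did not pass, with a median of 0.58, while 29.2% of all genes were higher and 27.4% lower in D18, with a median of 0. With scaling by library totals alone the D18 and D7 split was 5 higher and 4 lower, since Nampt (log2 change -0.34) and Nmnat3 (-0.43) then passed. In D32 relative to D18 none of the 10 rose with edgeR (none at an unadjusted p under 0.05 either, and none with DESeq2 or limma-voom), 4 fell (Cd38, Nmnat2, Sirt2 and Sirt3) and 6 did not pass, with a median of -0.14, against 29.9% of all genes higher and 26.1% lower in D32, with a median of 0.07. The 11 calls of these last 2 comparisons held under every alternative run for them.

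Set against MEF, 4 rose in D32 (Nmnat2, Sirt3, Cd38 and Nnmt), 1 fell (Parp1) and 5 did not pass, with a median log2 change of 0.22, against 35.6% of all genes higher and 24.6% lower in D32 and an all-gene median of 0.26. The count of 5 called was 3 without MEF replicate 3, without D32 replicate 3 or with no filter on low counts, and 7 with library totals. Set against P-RPE, 1 was higher in D32 (Nnmt), 5 were lower (Nmnat2, Nmnat3, Sirt3, Cd38 and Sirt2) and 4 did not pass, with a median of -0.43, against 27.1% of all genes higher and 26.8% lower in D32 and an all-gene median of 0.02. In P-RPE relative to MEF, 5 were higher (Nmnat2, Sirt3, Cd38, Nmnat3 and Sirt2), 2 were lower (Nnmt and Parp1) and 3 did not pass, with a median of 0.48, against 39.3% of all genes higher and 31.4% lower in P-RPE and an all-gene median of 0.18. The 3 comparisons share libraries with each other and with those above, so their counts are not independent. Since so many genes differed between any 2 groups, these counts of 10 genes are read against those shares, and the description below goes gene by gene. For the order of levels, the remaining pairs of groups were also used; the share of all genes called in either direction was 70.2% for D18 and MEF, 56.2% for D18 and P-RPE, 63.9% for D7 and P-RPE and 50.8% for D32 and D7.

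**Figure D2:**
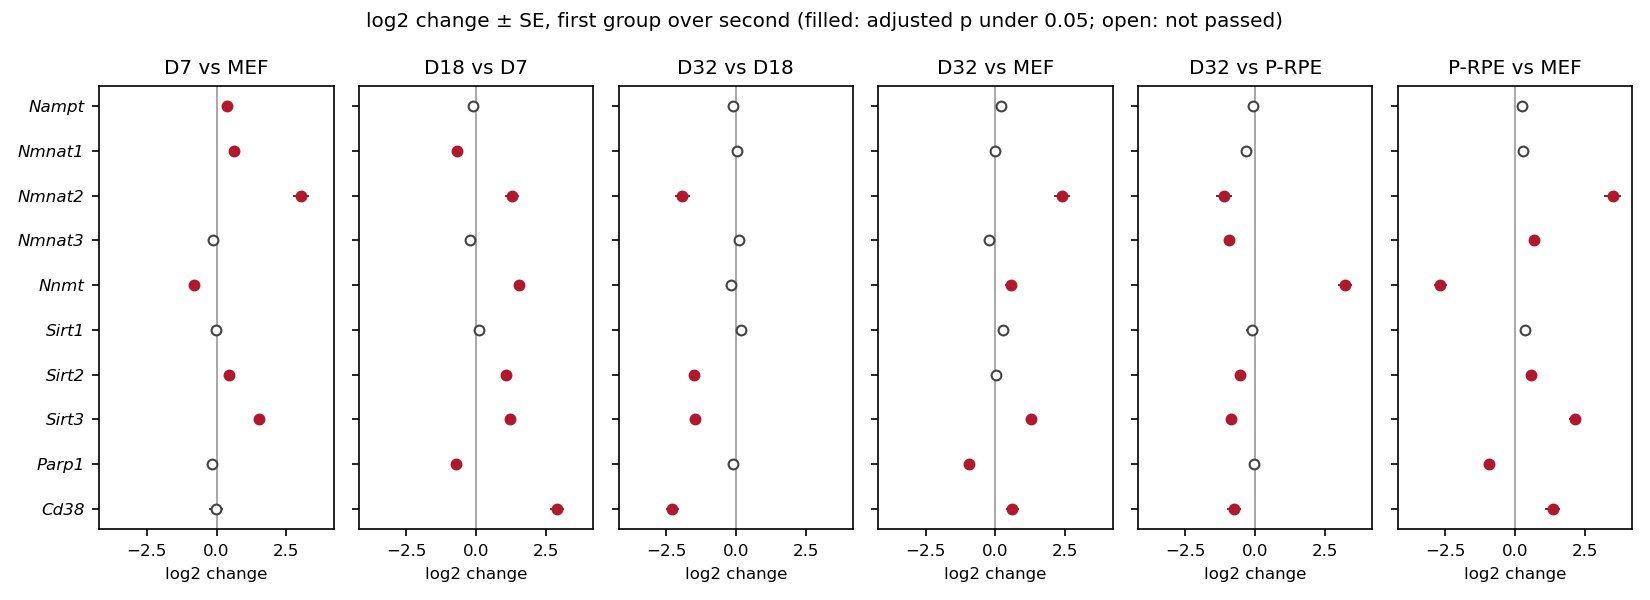
The log2 change of each gene with its SE (horizontal axis) in 6 comparisons (panels, first group over second); filled points passed an adjusted p of 0.05 and open points did not. The 4 genes that fell in D32 relative to D18 are Nmnat2, Sirt2, Sirt3 and Cd38, and Nnmt is the only one of the 10 higher in D32 than in P-RPE, by 3.21 on the log2 scale.

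Nampt (chr12:32819545-32853349, plus strand) makes nicotinamide mononucleotide from nicotinamide. Its level was 35.4, 40.4 and 40.4 CPM in MEF, 47.6, 50.7 and 54.2 CPM in D7, 53.3, 43.2 and 44.0 CPM in D18, 45.9, 36.5 and 49.96 CPM in D32 and 48.3 and 44.8 CPM in P-RPE. The D7 libraries all stood above the MEF libraries, while D32 overlapped D18, MEF and P-RPE. Nampt rose in D7 relative to MEF by 0.39 ± 0.13 on the log2 scale (SE, adjusted p = 0.0151), a call lost without MEF replicate 1 (0.33, adjusted p = 0.0716) or without D7 replicate 3 (0.31, adjusted p = 0.0871). After the switch of medium its mean was 44.1 ± 6.92 CPM in D32, against 46.8 ± 5.61 CPM in D18 (SD, n = 3 each), a log2 change of -0.09 ± 0.12 (SE) that did not pass (adjusted p = 0.578). D32 also did not differ from P-RPE beyond the spread (log2 change -0.08, adjusted p = 0.657). No neighbours in the order D7, D18, P-RPE, D32, MEF were told apart. Nampt was nevertheless called higher in D32 than in MEF with library totals (0.39, adjusted p = 0.0176) and without D32 replicate 2 (0.31, adjusted p = 0.0282). It was called higher in P-RPE than in MEF with a minimum mean of 5 CPM (0.36, adjusted p = 0.0283) and in a model of the 2 groups alone (0.23, adjusted p = 0.0376). In bulk RNA, fewer cells of a type and less RNA per cell cannot be told apart, here and for all genes below.

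The 3 Nmnat enzymes moved apart from one another. Nmnat2 (chr1:152954993-153119261, plus strand), the short-lived enzyme known for protecting axons, had 2.19, 2.74 and 2.75 CPM in MEF, 22.9, 15.2 and 24.3 CPM in D7, 51.1, 32.6 and 68.9 CPM in D18, 15.7, 10.5 and 14.2 CPM in D32 and 24.18 and 34.3 CPM in P-RPE. Every library of the treated cells and of P-RPE was above every MEF library, and no D18 library overlapped D7 or D32. D18 did overlap P-RPE, since D18 replicate 2 (32.6 CPM) was below P-RPE replicate 2 (34.3 CPM). Nmnat2 rose by 3.02 ± 0.29 in D7 relative to MEF (adjusted p = 6.41e-07) and by 1.29 ± 0.26 in D18 relative to D7 (adjusted p = 0.000598). It fell by 1.92 ± 0.26 in D32 relative to D18 (adjusted p = 2.25e-05). In D32 it was lower than in P-RPE, with a log2 change of -1.12 ± 0.28 (adjusted p = 0.00381), and without P-RPE replicate 2 this was -0.84 (adjusted p = 0.0605). In the order D18, P-RPE, D7, D32, MEF, the neighbours P-RPE and D7 (adjusted p = 0.138) and D7 and D32 (adjusted p = 0.0541) were not told apart. The first pair, D18 and P-RPE, was told apart (log2 change 0.80 ± 0.29, adjusted p = 0.0285), and no alternative was run for it. The 10 neuron markers summed to 221 to 259 CPM in D7 and 225 to 240 CPM in D18, against 85.0 to 92.2 CPM in MEF, 106 to 117 CPM in D32 and 87.1 to 96.3 CPM in P-RPE, and their part in the Nmnat2 levels was not tested. Of these markers, 7 rose and 2 fell in D7 relative to MEF. In D18 relative to D7, 2 rose and 4 fell, and in D32 relative to D18, 1 rose and 4 fell. In P-RPE relative to MEF, 4 of these markers were higher and 5 lower. Map2 alone averaged 121 CPM in D7 and 138 CPM in D18.

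Nmnat1 (chr4:149467572-149485202, minus strand), the nuclear enzyme, had 7.28, 7.47 and 6.86 CPM in MEF, 11.1, 11.3 and 11.1 CPM in D7, 7.28, 7.44 and 6.01 CPM in D18, 7.76, 6.73 and 7.02 CPM in D32 and 9.29 and 8.55 CPM in P-RPE. The D7 libraries stood above all others, but in the order D7, P-RPE, MEF, D32, D18 no neighbours were told apart. P-RPE and MEF were told apart with DESeq2 (0.32, adjusted p = 0.0424) and with the 5 CPM minimum (0.40, adjusted p = 0.0216). Nmnat1 rose by 0.63 ± 0.14 in D7 relative to MEF (adjusted p = 0.0017) and fell by 0.69 ± 0.14 in D18 relative to D7 (adjusted p = 0.000832). D32 and P-RPE did not pass (log2 change -0.31, adjusted p = 0.111), but did with DESeq2 (-0.39, adjusted p = 0.0146) and with RLE size factors (-0.39, adjusted p = 0.0493). Nmnat3 (chr9:98287435-98420438, plus strand), the mitochondrial enzyme, had 7.31, 6.998 and 7.74 CPM in MEF, 5.95, 7.61 and 6.73 CPM in D7, 6.57, 6.48 and 4.42 CPM in D18, 6.11, 6.89 and 5.92 CPM in D32 and 12.4 and 11.6 CPM in P-RPE. Both P-RPE libraries were above all others. Nmnat3 was lower in D32 than in P-RPE, with a log2 change of -0.93 ± 0.20 (adjusted p = 0.00101), and higher in P-RPE than in MEF by 0.71 ± 0.20 (adjusted p = 0.00473). No change of Nmnat3 between successive times passed, and below P-RPE the order MEF, D7, D32, D18 held no neighbours that were told apart.

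Per exon length, the mix of the 3 enzymes therefore changed. Nmnat2 took 10.3% ± 1.2 of the summed CPM per kb in MEF, 41.4% ± 6.95 in D7, 70.4% ± 10.3 in D18, 38.9% ± 4.59 in D32 (SD, n = 3 each) and 48.3% ± 7.55 in P-RPE (SD, n = 2). Nmnat1 took 55.4% ± 2.26 in MEF and 19.5% ± 6.37 in D18, and Nmnat3 took 34.3% ± 1.92 in MEF and 10.1% ± 3.93 in D18. The summed level was 4.24 to 4.33 CPM per kb in MEF, 7.86 to 9.21 in D7, 9.39 to 14.8 in D18, 5.41 to 6.49 in D32 and 9.72 to 11.1 in P-RPE. These shares were not tested beyond the tests of the single genes.

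**Figure D3:**
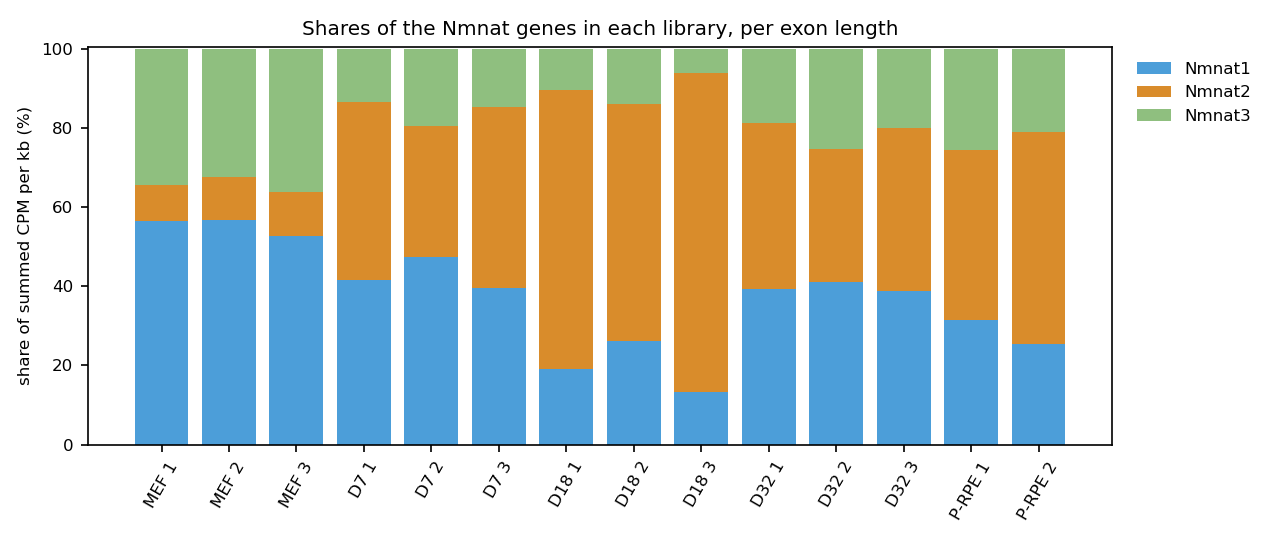
Stacked share of Nmnat1, Nmnat2 and Nmnat3 in their summed CPM per kb of exon (vertical axis, percent) in each of the 14 libraries (horizontal axis). Nmnat2 is the smallest share in MEF (8.95% to 11.1%) and the largest in D18 (60.1% to 80.6%).

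Nnmt (chr9:48591877-48605153, minus strand), nicotinamide N-methyltransferase, had 10.3, 10.3 and 10.2 CPM in MEF, 5.35, 6.36 and 5.98 CPM in D7, 20.3, 17.96 and 12.8 CPM in D18, 12.02, 17.4 and 15.5 CPM in D32 and 1.46 and 1.77 CPM in P-RPE. P-RPE was below every other library and D7 below MEF, while D18 and D32 overlapped. It fell by 0.80 ± 0.19 in D7 relative to MEF (adjusted p = 0.00199) and rose by 1.53 ± 0.19 in D18 relative to D7 (adjusted p = 6.44e-06). The change after the switch of medium did not pass, with a log2 change of -0.18 in D32 relative to D18 (adjusted p = 0.409). In D32 Nnmt averaged 14.97 ± 2.74 CPM (SD, n = 3), against 1.61 ± 0.22 CPM in P-RPE (SD, n = 2), a 9.29-fold higher mean and a log2 change of 3.21 ± 0.25 (adjusted p = 7.13e-08). Relative to MEF it was higher in D32 by 0.54 ± 0.18 (adjusted p = 0.0194), a call lost with no filter on low counts (0.47, adjusted p = 0.0558), without MEF replicate 3 (0.53, adjusted p = 0.0539), without D32 replicate 2 (0.42, adjusted p = 0.0787) and without D32 replicate 3 (0.52, adjusted p = 0.0518). The 8 fibroblast markers summed to 10050 to 15860 CPM in D32, 1372 to 1664 CPM in P-RPE and 10710 to 11160 CPM in MEF, and their part in the Nnmt difference was not tested. That sum was 9114 to 9807 CPM in D7 and 3336 to 15250 CPM in D18. In D7 relative to MEF, where Nnmt fell, 4 of the 8 markers rose and 1 fell. In P-RPE relative to MEF, 2 were higher and 5 lower. Dcn averaged 501 CPM in P-RPE and 36.7 CPM in MEF, and Lum 160 and 1.96 CPM. In the order D18, D32, MEF, D7, P-RPE, the first pair alone was not told apart.

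Nampt and Nnmt both take nicotinamide, and their ratio per exon length followed Nnmt, as Nampt moved little. Nnmt over Nampt was 0.855 ± 0.0693 in MEF, 0.372 ± 0.0265 in D7, 1.16 ± 0.21 in D18, 1.12 ± 0.37 in D32 (SD, n = 3 each) and 0.112 ± 0.0211 in P-RPE (SD, n = 2). The 3 D32 libraries had 0.84, 1.53 and 0.992, so replicate 2 was the highest of the group. In that replicate Nampt was also the lowest of the 3.

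Among the sirtuins, Sirt1 (chr10:63319005-63381704, minus strand), the mostly nuclear deacetylase, kept within 13.2 to 22.6 CPM over all 14 libraries. Its group means were 15.3 ± 0.41 CPM in MEF, 15.3 ± 0.69 CPM in D7, 16.3 ± 3.36 CPM in D18, 18.4 ± 4.78 CPM in D32 (SD, n = 3 each) and 19.9 ± 1.21 CPM in P-RPE (SD, n = 2). In none of the 6 comparisons did Sirt1 pass, with log2 changes from -0.12 in D32 relative to P-RPE to 0.38 in P-RPE relative to MEF (adjusted p = 0.103). The D32 libraries spread from 13.2 to 22.6 CPM, and without D32 replicate 2, the lowest, Sirt1 was higher in D32 than in MEF by 0.45 (adjusted p = 0.0207). That call was also made with library totals alone (0.47, adjusted p = 0.0403), and a higher level in P-RPE than in MEF was called with a minimum mean of 5 CPM (0.48, adjusted p = 0.0447) and in a model of the 2 groups alone (0.34, adjusted p = 0.0101).

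Sirt2 (chr7:28766735-28788661, plus strand), the mainly cytosolic tubulin deacetylase, was the most abundant of the 3 sirtuins. It had 114, 128 and 122 CPM in MEF, 160.1, 173 and 166 CPM in D7, 391, 279.7 and 378 CPM in D18, 119, 139 and 116 CPM in D32 and 180.2 and 185 CPM in P-RPE. All D18 libraries exceeded all others, and D32 overlapped MEF. Of the 8 astrocyte markers, 7 rose in D18 relative to D7 and all 8 fell in D32 relative to D18. So did Sirt2, Sirt3, Nmnat2 and Cd38. In D7, D32 and P-RPE, each relative to MEF, 7 markers rose and 1 fell. Cd38 did not pass there in D7, nor Sirt2 in D32, and otherwise the 4 genes rose. In D32 relative to P-RPE, 4 markers were higher and 2 lower, while all 4 genes were lower. Gfap alone averaged 26580 CPM in D18, and Gja1 534 CPM in MEF. The part of these markers in the levels of the 4 genes was not tested. Sirt2 rose by 0.46 ± 0.12 in D7 relative to MEF (adjusted p = 0.00487) and by 1.07 ± 0.12 in D18 relative to D7 (adjusted p = 3.01e-06), and it fell by 1.49 ± 0.12 in D32 relative to D18 (adjusted p = 1.13e-07). D32 was lower than P-RPE, with a log2 change of -0.55 ± 0.13 (adjusted p = 0.00284), and did not differ from MEF beyond the spread (0.04, adjusted p = 0.818). Per exon length Sirt2 made up 81.7% to 88.7% of the group means of the 3 sirtuins' sum. In the order D18, P-RPE, D7, D32, MEF, neither P-RPE and D7 (adjusted p = 0.41) nor D32 and MEF were told apart.

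Sirt3 (chr7:140863666-140882309, minus strand), the main mitochondrial deacetylase, had 4.14, 5.50 and 5.36 CPM in MEF, 12.06, 18.5 and 13.1 CPM in D7, 37.9, 31.9 and 32.32 CPM in D18, 11.1, 13.7 and 11.9 CPM in D32 and 22.3 and 21.95 CPM in P-RPE. D18 was above P-RPE, P-RPE above D7 and D32, and MEF below all. Sirt3 rose by 1.54 ± 0.17 in D7 relative to MEF (adjusted p = 2.65e-06) and by 1.22 ± 0.17 in D18 relative to D7 (adjusted p = 1.71e-05), and it fell by 1.48 ± 0.17 in D32 relative to D18 (adjusted p = 2.98e-06). It was lower in D32 than in P-RPE, with a log2 change of -0.86 ± 0.18 (adjusted p = 0.00112), and higher in D32 than in MEF by 1.29 ± 0.17 (adjusted p = 1.45e-05). In the order D18, P-RPE, D7, D32, MEF, D7 and D32 were not told apart (adjusted p = 0.223). Exons of Sirt3 share 418 bases (7% of its exon length) with Ric8a and 342 bases (5.73%) with Psmd13, both on the opposite strand, and the strand setting of the counting is not given in the sources used here. Ric8a did not pass in D7 relative to MEF (log2 change -0.26), D18 relative to D7 (0.27) or D32 relative to D18 (-0.14), and Psmd13, which fell by 0.52 in D7 relative to MEF (adjusted p = 0.000528), did not pass in D18 relative to D7 (0.13) or D32 relative to D18 (-0.07).

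Parp1 (chr1:180568924-180601254, plus strand), the DNA-damage sensor that spends NAD on poly(ADP-ribose), moved the other way. It had 120.0, 119 and 121 CPM in MEF, 106, 96.9 and 121 CPM in D7, 71.9, 62.1 and 63.4 CPM in D18, 57.9, 66.2 and 60.6 CPM in D32 and 61.1 and 65.4 CPM in P-RPE. MEF and D7 stood above the other 3 groups with no overlap. Parp1 fell by 0.71 ± 0.10 in D18 relative to D7 (adjusted p = 2.27e-05), by 0.96 ± 0.10 in D32 relative to MEF (adjusted p = 1.08e-06) and by 0.92 ± 0.11 in P-RPE relative to MEF (adjusted p = 3.51e-06). In D7 relative to MEF it did not pass (-0.15, adjusted p = 0.204), and it did without D7 replicate 3 (-0.28, adjusted p = 0.039). In the order MEF, D7, D18, P-RPE, D32, D7 and D18 were the one pair told apart, and D32 and P-RPE did not differ beyond the spread (-0.04, adjusted p = 0.787). The 8 markers of dividing cells summed to 1047 to 1104 CPM in MEF, 396 to 424 CPM in D7, 87.8 to 94.8 CPM in D18, 308 to 419.9 CPM in D32 and 132 to 135 CPM in P-RPE. All 8 fell in D18 relative to D7, in D32 relative to MEF and in P-RPE relative to MEF, where Parp1 fell too. All 8 also fell in D7 relative to MEF and rose in D32 relative to D18, where Parp1 did not pass (log2 change -0.10, adjusted p = 0.434, in D32 relative to D18). Their part in the Parp1 levels was not tested.

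Cd38 (chr5:43868553-43912375, plus strand), a membrane NAD glycohydrolase best known from immune cells, had 3.81, 3.84 and 3.06 CPM in MEF, 2.91, 4.57 and 3.08 CPM in D7, 33.9, 26.0 and 18.9 CPM in D18, 6.43, 4.56 and 5.30 CPM in D32 and 9.91 and 8.34 CPM in P-RPE. D18 was above all other libraries and P-RPE above the rest, while D7 overlapped MEF and, at its highest library, D32. Cd38 rose by 2.90 ± 0.24 in D18 relative to D7 (adjusted p = 1.31e-07), the largest step between consecutive times after the rise of Nmnat2 in D7, and fell by 2.27 ± 0.24 in D32 relative to D18 (adjusted p = 1.16e-06). D32 was higher than MEF by 0.61 ± 0.24 (adjusted p = 0.0385), and this call was lost with RLE size factors, with no filter, with limma-voom, with DESeq2 and without any 1 of 5 libraries (MEF replicates 1, 2 and 3 and D32 replicates 1 and 3), with adjusted p from 0.0536 to 0.14. D32 was lower than P-RPE, with a log2 change of -0.75 ± 0.25 (adjusted p = 0.0219), a call lost with library totals (-0.51, adjusted p = 0.0977), without D32 replicate 2 (-0.64, adjusted p = 0.069), without D32 replicate 3 (-0.73, adjusted p = 0.0536) and without P-RPE replicate 1 (-0.62, adjusted p = 0.137). In D18 the 10 macrophage markers summed to 11.1 to 41.2 CPM and the 7 lymphocyte markers to 0.13 to 0.53 CPM with 4 of them at 0, against 68.9 to 77.7 CPM and 0.09 to 0.28 CPM in MEF, also with 4 lymphocyte markers at 0. The astrocyte sum given above was highest in D18. All 10 macrophage markers were lower in D32 than in P-RPE, as Cd38 was. In D32 relative to MEF, 7 of 10 macrophage markers rose (161 to 278 CPM in D32, against 68.9 to 77.7 CPM in MEF), as did 4 of the 5 lymphocyte markers tested. In D32 relative to D18, 9 macrophage markers and all 5 lymphocyte markers tested rose, while Cd38 fell. In D7 relative to MEF, 6 macrophage markers fell, and Cd38 did not pass. In D18 relative to D7, 1 macrophage marker rose and 1 fell, while Cd38 rose. In P-RPE relative to MEF, all 10 macrophage markers were higher, as Cd38 was. The part of these markers in the Cd38 differences was not tested. In the order D18, P-RPE, D32, MEF, D7, the last pair alone was not told apart.

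**Figure D4:**
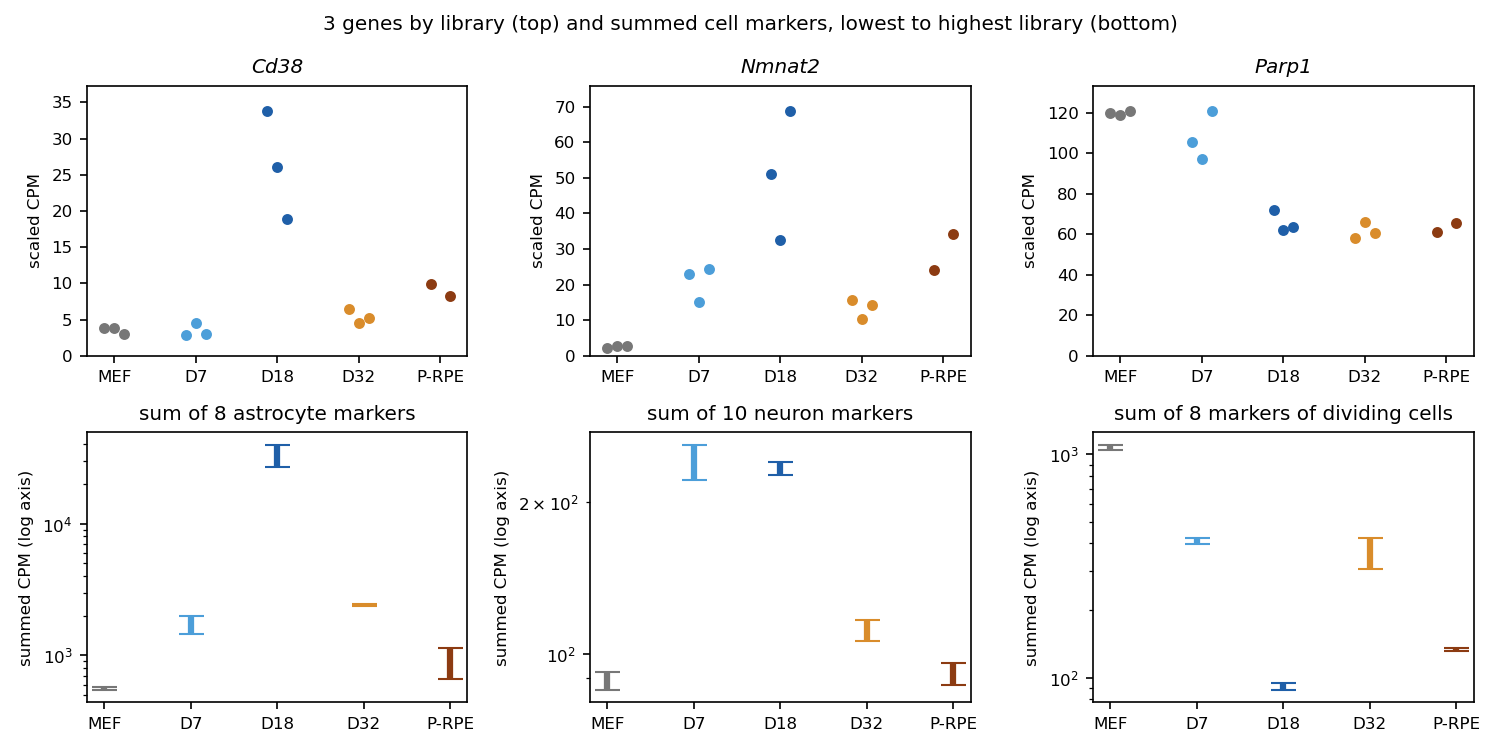
Top: Cd38, Nmnat2 and Parp1 in scaled CPM (vertical axis, from 0) by library. Bottom: summed CPM on a log axis of 8 astrocyte, 10 neuron and 8 dividing-cell markers, from the lowest to the highest library of each group. The astrocyte sum peaks at D18 with 26660 to 39620 CPM, as Cd38 does. The dividing-cell sum is highest in MEF and lowest at D18, while the Parp1 levels of MEF and D7 were not told apart.

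Over the 14 libraries, some of the 10 genes followed one another. Pearson's r of log2 CPM was 0.94 for Nmnat2 and Sirt3, 0.86 for Sirt2 and Cd38, 0.85 for Sirt2 and Sirt3, -0.78 for Nnmt and Nmnat3 and -0.68 for Sirt3 and Parp1. Libraries of a group share their treatment, so these values describe 5 groups more than 14 independent points. Among the 12033 genes that averaged 5 CPM or more, the pattern of Nmnat2 was most like those of Sobp (r = 0.98), Amt (0.98) and Acsf2 (0.98). Nnmt was most like Aebp1 (0.98), Tmem150a (0.97) and Cacnb3 (0.97). Aebp1 averaged 1339 CPM in MEF, 665 CPM in D7, 2739 CPM in D18, 1675 CPM in D32 and 138 CPM in P-RPE. Cd38 was most like Rcbtb2 (0.97), D5Ertd579e (0.97) and Arsb (0.96), the last of which, a lysosomal sulfatase, averaged 73.0 CPM in MEF, 76.6 CPM in D7, 232 CPM in D18, 91.2 CPM in D32 and 108 CPM in P-RPE.

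Beside the 10 genes, 59 other gene symbols around NAD metabolism were listed, genes of the methyl donor included, of which 56 were tested. In D7 relative to MEF, 25 rose, 5 fell and 26 did not pass, with a median log2 change of 0.42. In D18 relative to D7, 21 rose, 15 fell and 20 did not pass (median 0.20), and in D32 relative to D18, 9 rose, 17 fell and 30 did not pass (median -0.15). D32 relative to MEF had 28 higher, 4 lower and 24 not passed (median 0.55), D32 relative to P-RPE had 9 higher, 21 lower and 26 not passed (median -0.33), and P-RPE relative to MEF had 33 higher, 10 lower and 13 not passed (median 0.68). The shares of all genes and their medians given above, comparison by comparison, are the background for these counts.

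Around NAD synthesis, 19 other genes were tested. They are not all routes to NAD, since the list also held the carrier Slc25a51 and the kynurenine aminotransferases Kyat1 and Kyat3. In D7 relative to MEF, 7 rose and 2 fell, where 28.5% and 26.5% of all genes did. For D18 relative to D7, 9 rose and 2 fell (29.2% and 27.4% of all genes), and for D32 relative to D18, 1 rose and 7 fell (29.9% and 26.1%). D32 had 10 higher than MEF and 9 that did not pass (35.6% of all genes higher and 24.6% lower), and 2 higher and 7 lower than P-RPE (27.1% and 26.8%). Among the 10 higher than MEF were Kyat1 and Kyat3. Haao, Nmrk2 and Tdo2 were also among them, and averaged only 0.30, 0.22 and 0.28 CPM in D32. P-RPE had 12 higher and 1 lower than MEF (39.3% and 31.4%). Slc12a8, reported as a transporter of nicotinamide mononucleotide, had 1.99 ± 0.19 CPM in D32 and 10.2 ± 1.6 CPM in D18 (SD, n = 3 each), a log2 change of -2.35 (adjusted p = 9.08e-06). Naprt, which uses nicotinic acid in place of nicotinamide, was higher in D32 (15.6 ± 2.07 CPM, SD, n = 3) than in P-RPE (7.52 ± 1.42 CPM, SD, n = 2), with a log2 change of 1.05 (adjusted p = 0.000203). Kyat3, a kynurenine aminotransferase, had 8.01 ± 1.66 CPM in D32 and 32.9 ± 4.41 CPM in P-RPE, a log2 change of -2.04 (adjusted p = 1.27e-05). Slc25a51, the mitochondrial NAD carrier, had 92.3 ± 4.02 CPM in D32 and 90.9 ± 6.89 CPM in P-RPE and did not pass (0.02, adjusted p = 0.859).

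Of the 15 other members of the PARP family tested, 11 rose and 4 did not pass in D7 relative to MEF, with a median log2 change of 0.91, against 28.5% of all genes higher, 26.5% lower and a median of 0.04. The largest rise was of Parp14, a mono-ADP-ribosyltransferase known to be induced by interferon, with 35.6 ± 6.57 CPM in D7 and 2.45 ± 0.23 CPM in MEF (SD, n = 3 each) and a log2 change of 3.86 (adjusted p = 3.22e-10). In D18 relative to D7, 1 rose, 8 fell and 6 did not pass, against 29.2% of all genes higher and 27.4% lower. Parp1 did not pass in the first step and fell in the second. Parp3, which responds to DNA breaks, was higher in D32 (167.5 ± 20 CPM, SD, n = 3) than in P-RPE (40.5 ± 6.82 CPM, SD, n = 2), with a log2 change of 2.05 (adjusted p = 1.56e-07). Tnks, a tankyrase of the Wnt pathway, rose to 193 ± 25 CPM in D32, against 96.9 ± 1.73 CPM in D18 (SD, n = 3 each), a log2 change of 0.99 (adjusted p = 1.27e-06).

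Of the 4 other sirtuins, in D18 relative to D7, Sirt5 rose by 0.60 (adjusted p = 0.00601), Sirt6 fell by 0.73 (adjusted p = 0.000844) and the other two did not pass. Sirt4, a mitochondrial sirtuin like Sirt3 and Sirt5, averaged 6.76 CPM in MEF, 11.2 CPM in D7, 13.9 CPM in D18, 12.9 CPM in D32 and 20.5 CPM in P-RPE and was lower in D32 than in P-RPE, with a log2 change of -0.67 (adjusted p = 0.0135). Sarm1, the NAD glycohydrolase that in neurons acts against Nmnat2, averaged 1.40 CPM in MEF, 7.66 CPM in D7, 14.3 CPM in D18, 2.96 CPM in D32 and 14.99 CPM in P-RPE. Like Nmnat2 it rose in D7 relative to MEF (log2 change 2.45, adjusted p = 1.61e-06) and in D18 relative to D7 (0.90, adjusted p = 0.00464) and fell by 2.27 in D32 relative to D18 (adjusted p = 2.17e-06).

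**Figure D5:**
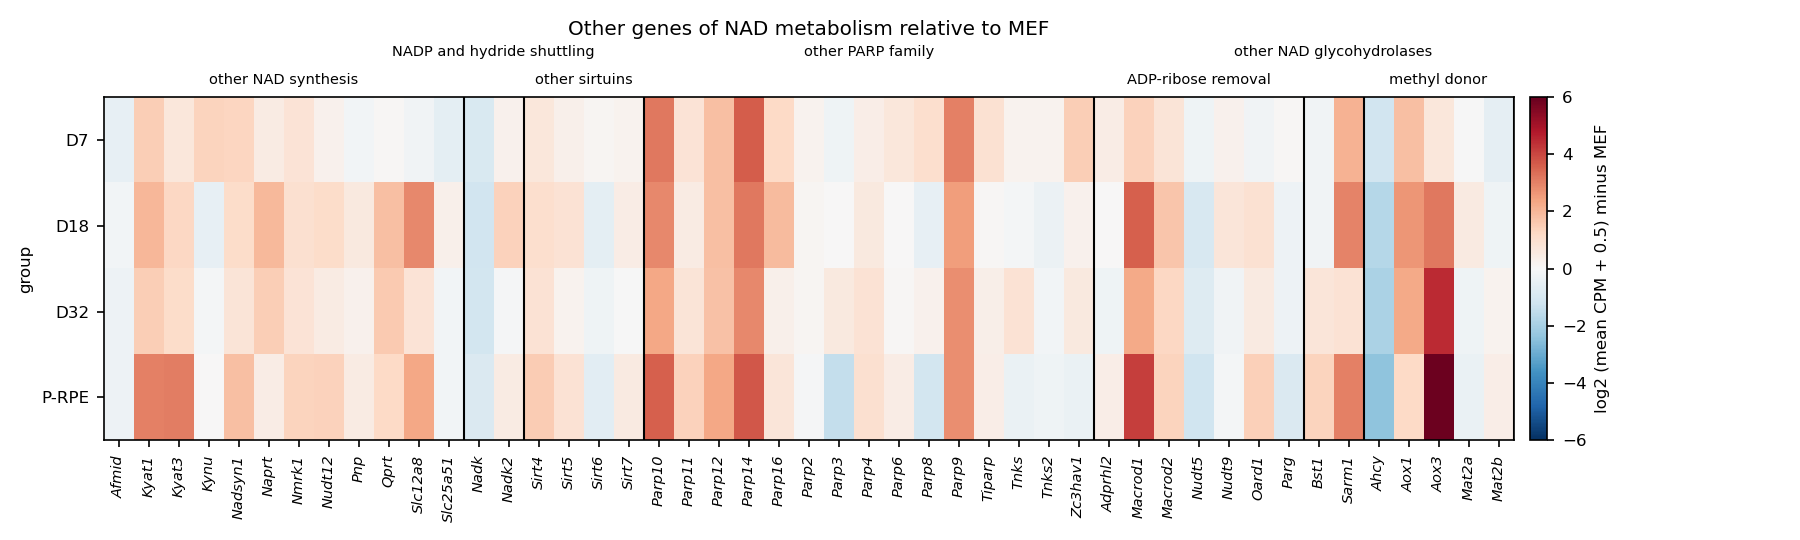
Group means of the other listed genes that reach a mean of 1 CPM in some group, as log2 (mean CPM + 0.5) minus the MEF value (colour), for D7, D18, D32 and P-RPE (rows), ordered by list. Parp14 is red in all 4 rows, and Sarm1 is red at D18 and P-RPE and paler at D32.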

How the data were processed

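Total RNA was sequenced in 14 mouse libraries of 5 groups, taken from the sample titles. The authors deposited raw counts per gene symbol, and the values are whole numbers with unequal totals. STAR 2.7.11a, Subread featureCounts, edgeR 4.0.16 and limma 3.58.1 are listed in the submitters' processing notes, as are mm10, GRCm38 and GRCh38; the step each belongs to is not stated there. Strand setting, annotation and the treatment of reads with several matches are not given in the sources used here, so overlapping and near-identical genes may share reads. A second deposited table, of human libraries, was not used here.

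From these counts, genes were kept with filterByExpr by group, libraries were scaled by TMM, and 1 edgeR quasi-likelihood model (4.0.16, R 4.3.3, robust) with 5 group means was fitted to all 20562 kept genes. For each contrast the threshold was an adjusted p of 0.05 (Benjamini-Hochberg), and the SE is the log2 change over the square root of F. Groups have 2 or 3 libraries. Of 55291 symbols, 53292 (96.38%) matched GENCODE vM21, which gave coordinates and exon lengths on GRCm38. Promoters are RefSeq windows of GRCm38.p6.

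The 10 genes and all lists were chosen with earlier results of these data known. Named genes are the 10, the largest rise, the largest fall and the most abundant gene that did not pass of each list, and the 3 genes most alike to each of the 3 genes of widest range. The text names a selection. Genes printed with promoters were chosen after their values were seen. Alternatives were RLE size factors, library totals, no filter, a minimum mean of 5 CPM, a replicate block, the 2 groups alone, DESeq2 1.42.0, limma-voom 3.58.1 and leaving out each library. Fits without the D18 or the P-RPE libraries were added after seeing the data. Tested on simulated data, D18 vs D7 recovered 82% of 2-fold and 98% of 4-fold changes with 6 false calls among 19714 genes, and D32 vs D18 recovered 81% and 96% with 4 false calls among 19880. The simulated counts came from the fitted model, with the spread of each gene equal in all groups and changes only in genes above a minimum level. The common coefficient of variation of the real groups ran from 0.0404 in MEF to 0.222 in D18, so these rates may not hold for the real libraries.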

Additional observations from a re-analysis of the deposited data

How the results depend on the processing

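The number of the 10 genes called was 5 in D32 relative to MEF. It was 3 there with no filter on low counts, 7 with library totals and 3 to 6 when 1 library was left out. In the other 5 comparisons the number stayed within 1.5 times its value. In P-RPE relative to MEF it was 7, while all 10 were called with a minimum mean of 5 CPM and 9 in a model of the 2 groups alone. Over all genes, 14528 were called in P-RPE relative to MEF, and 9578 of the 12030 tested with a minimum mean of 5 CPM. No called log2 change of the 10 genes reversed, and 20 of 523 repeats of such calls no longer passed. Log2 changes that were not called reversed as listed next, most of them near 0. Library totals shift the median of all genes by 0.32 in D7 relative to MEF, -0.21 in D18 relative to D7, 0.20 in D32 relative to MEF and 0.23 in D32 relative to P-RPE. With totals, the share of called genes that were higher was 69.7% (51.8% as reported) in D7 relative to MEF, 40.7% (51.6%) in D18 relative to D7 and 62.1% (50.2%) in D32 relative to P-RPE.

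For D7 relative to MEF, library totals gave Nmnat3 0.20, Sirt1 0.31, Parp1 0.16 and Cd38 0.30, the 5 CPM minimum gave Sirt1 0.0472 and Cd38 0.0372, and the 2 groups alone gave Sirt1 0.0258 and Cd38 0.0132. For D18 relative to D7, totals gave Sirt1 -0.13. For D32 relative to D18, Nmnat1 was -0.0201 with RLE and -0.0203 with DESeq2, and Nampt 0.0168 with totals. For D32 relative to MEF, Sirt2 was -0.0311 with RLE, -0.0388 with no filter, -0.0105 with the 2 groups alone, -0.0352 without the D18 libraries and -0.0311 with DESeq2, and Nmnat1 was 0.19 with totals and 0.0646 with the 5 CPM minimum. For D32 relative to P-RPE, totals gave Nampt 0.16, Sirt1 0.12 and Parp1 0.19, and Parp1 was 0.023 with no filter, 0.0238 with the 2 groups alone and 0.0178 without the D18 libraries. Leaving out 1 library gave Sirt1 -0.0706 to 0.0126 and Cd38 -0.28 to 0.0674 in D7 relative to MEF, Sirt1 -0.0705 to 0.23 in D18 relative to D7, and Nampt -0.18 to 0.0339, Nmnat1 -0.0405 to 0.0976, Nmnat3 -0.0528 to 0.21 and Sirt1 -0.0006 to 0.37 in D32 relative to D18. It gave Sirt2 -0.051 to 0.0853 and Nmnat1 -0.0672 to 0.0378 in D32 relative to MEF, and Parp1 -0.0948 to 0.0111, Nampt -0.18 to 0.0407 and Sirt1 -0.29 to 0.0722 in D32 relative to P-RPE. The cause of these changes was not tested.

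Same-numbered libraries did not deviate together (correlations from -0.091 to 0.095). With 2 or 3 libraries per group this cannot settle whether the numbers pair the samples, and the labels do not say. With the replicate block, 6 of the 10 genes were called in D7 relative to MEF, 7 in D18 relative to D7, 4 in D32 relative to D18, 5 in D32 relative to MEF, 6 in D32 relative to P-RPE and 7 in P-RPE relative to MEF, the same numbers as without it. P-RPE rests on 2 libraries, and D18 has the widest spread of the 10 genes (median CV 19%, against 5.35% in MEF).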

Other observations

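Of 6 tested genes for methylated nicotinamide and the methyl donor, 2 rose, 1 fell and 3 did not pass in D32 relative to D18. Their median log2 change was 0.15, and 29.9% of all genes were higher and 26.1% lower. In D32 relative to P-RPE, 2 were higher, 1 lower and 3 not passed, with a median of -0.03. Of all genes, 27.1% were higher and 26.8% lower in D32 than in P-RPE. Aox3, an aldehyde oxidase of the family that oxidises methylated nicotinamide, averaged 0.21 CPM in MEF, 0.65 CPM in D7, 5.86 CPM in D18, 15.3 CPM in D32 and 41.7 CPM in P-RPE, with a log2 change of 1.38 in D32 relative to D18 (adjusted p = 2e-05). Aox1 had 31.2 ± 7.7 CPM in D32 (SD, n = 3), against 14.7 ± 2.65 CPM in P-RPE (SD, n = 2), a log2 change of 1.09 (adjusted p = 0.000822). Ahcy, which clears the by-product of methyl transfer, was lower in D32 (45.7 ± 9.72 CPM) than in MEF (170.5 ± 1.52 CPM, SD, n = 3 each), with a log2 change of -1.90 (adjusted p = 1.11e-08). Mat2a, which makes the methyl donor, fell by 0.81 in D32 relative to D18 (adjusted p = 0.000446).

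Macrod1, a mitochondrial hydrolase that removes ADP-ribose, averaged 4.82 CPM in MEF, 13.4 CPM in D7, 63.8 CPM in D18, 25.2 CPM in D32 and 92.3 CPM in P-RPE and was lower in D32 than in P-RPE, with a log2 change of -1.87 (adjusted p = 3.65e-07). Nadk, the cytosolic NAD kinase, was lower in D32 (147 ± 15.6 CPM) than in MEF (318 ± 7.41 CPM, SD, n = 3 each), with a log2 change of -1.12 (adjusted p = 1.67e-07), while the mitochondrial Nadk2 rose by 1.14 in D18 relative to D7 (adjusted p = 6e-06) and fell by 1.48 in D32 relative to D18 (adjusted p = 4.8e-07). Nnt, the mitochondrial transhydrogenase of which the C57BL/6J strain is known to carry a deletion, had group means of 0.10 to 0.46 CPM in all 5 groups.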
